A study of Mus musculus with 2 samples.

Results

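H4K12la is the form of histone H4 that carries a lactyl group on lysine 12. In Neuro2a cells given NaCl, 11678 H4K12la peaks lay farther than 10 kb from every annotated gene and had no overlapping peak in cells given lactate. They were chosen from the control peak list by those criteria, on chromosomes 1 to 19 and X. They are 11678 of 46561 control peaks and of 86288 peaks in both lists, and are called control-only far peaks here. Neuro2a is an established mouse neuroblastoma line. One library was made from cells given NaCl (Ctrl) and 1 from cells given 25 mM lactate (Lactate). In both, CUT&Tag placed a transposase at chromatin bound by an H4K12la antibody, so that DNA beside the mark was cut and sequenced. The sources used here give neither the NaCl dose nor the length of treatment. With 1 library per group there is no replicate error, no test was run, and every interval is a 95% interval for counting error only.

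Histone lactylation is a modification that uses lactate-derived lactyl groups and, like acetylation, is mostly studied at promoters and enhancers. Sequence far from genes includes distal enhancers, which can act on promoters over long distances, and also long gene-poor tracts that are often late-replicating and rich in repeats. Very long gene-free tracts are called gene deserts, and many of them border genes of neural adhesion or development. In a peak list a mark appears only where reads stand above the surroundings within 1 library. A missing call is therefore not a missing mark.

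The genome-wide background recovered from the peaks, which is the number of overlapping reads expected by chance, was 3.38% higher in the lactate library, at 3.06 reads against 2.96. The lowest summit pileup, the number of reads stacked at the peak's highest point, was 11 reads among called peaks of either library. As a check of the line, peaks were sought within 1 kb of an end of neuroblastoma and neuron markers. Hand2 and Stmn2 were called in the control, and Stmn2, Phox2a, Elavl4, Gap43 and Tubb3 in the lactate library. Gata3, Th and Dbh were called in neither, and none of 10 markers of other cell types was called in either.

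The control library held the larger far-from-gene set. Of 14273 control peaks over 10 kb from genes, 2595 overlapped a lactate peak by at least 1 bp and are called shared far peaks. Of 5690 lactate peaks over 10 kb from genes, 3069 overlapped no control peak and are called lactate-only far peaks. Control peaks without a lactate partner made up 81.8% of the far control peaks (81.2% to 82.4%), 53.7% of the control peaks nearer to genes and 62.3% of all control peaks. In the lactate list 56.6% of all peaks had no control partner, and far and near shares were 53.9% (52.6% to 55.2%) and 57.1% (56.6% to 57.6%). These shares follow from the rule that chose the peaks and are given as a description. No genome sequence was used, so the base composition and repeat content of these regions were not analysed here.

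Control-only far peaks were short and close to the lowest callable level. Their median width was 174 bp, and 70.9% were at most 200 bp wide. The median summit pileup was 14 reads, the central 50% of peaks had 13 to 16 reads, and 42.5% (41.6% to 43.4%) had 11 to 13. Shared far peaks in the same list were wider, with a median of 294 bp, and higher, with a median of 18 reads and 15.1% at 11 to 13 reads. Lactate-only far peaks resembled the control-only set in these values within their own list, at a median of 166 bp and 14 reads. Control-only peaks within 10 kb of or in genes did so too. Their medians were 167 bp and 14 reads, with 75.9% at most 200 bp wide and 37.3% at 11 to 13 reads. The authors' fold enrichment had a median of 3.43 over the control-only far peaks and ran from 1.69 to 8.02. A −log10 q of at least 5 was reached by 549 of the 11678 (4.70%) and a −log10 q of at least 10 by 16. Of the 3069 lactate-only far peaks, 204 (6.65%) reached 5 and 3 reached 10. Of the 17343 control-only peaks nearer to genes, 610 (3.52%) reached 5 and 15 reached 10.

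**Figure D1:**
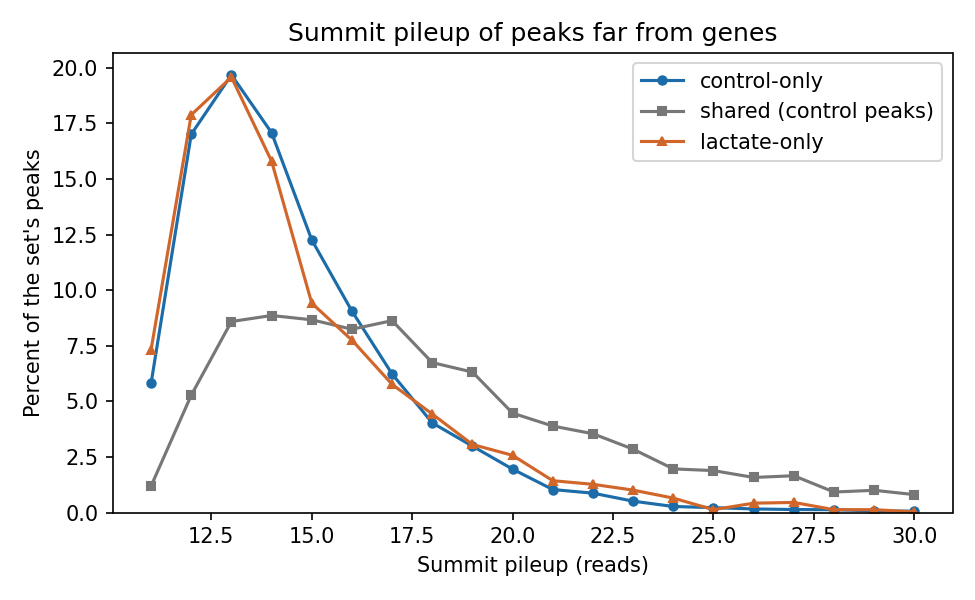
Percent of each set's peaks (vertical axis) at each summit pileup in reads (horizontal axis, 11 to 30 reads) for control-only, shared and lactate-only peaks over 10 kb from genes. The control-only and lactate-only curves are highest at low pileups, with medians of 14 reads, while the shared control peaks have a median of 18 reads and a longer tail.

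The 3 control-only far peaks just beyond the distance limit lay 10.0 kb from the pseudogene Gm15770, the phospholipase gene Plaat5 and the non-coding gene Gm30713, and had 15, 12 and 12 summit reads. The 3 control-only peaks just within it lay 9.99 kb from a gene and had 12, 13 and 13 summit reads. These are 3 peaks on each side, all near the lowest called pileup of 11 reads, so they cannot compare the sides of the limit. The widest control-only far peak covered 1101 bp on chromosome 14 (39754339 to 39755439, mm10), with 16 summit reads (9.15 to 26.0). The nearest protein-coding gene, the growth factor gene Nrg3, was 281 kb away.

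The highest summit pileups stood on high local backgrounds. The 10 members with the most summit reads had 57 to 104 reads, over local backgrounds of 23.5 to 53.5 reads, so their fold was only 1.69 to 2.37. Of these 10, 8 lay at the centromeric end of chromosomes 3, 4, 16 and 17, between positions 3000683 and 3240499. The highest, on chromosome 7 (64082690 to 64082874), had 104 reads (85.0 to 126) and a lactate peak 0.764 kb away. All 10 had a lactate peak nearby, the farthest at 3.82 kb. A local background over 10 reads was found for 60 of the 11678 (0.514%), against 6.32% of the shared far peaks. These 60 members are thus few and were kept.

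Ranked by fold, a choice made after the values were seen, other peaks led. The first lay on chromosome 1 (47119574 to 47120316), 194 kb beyond Slc39a10, a zinc transporter gene, in a 743 bp peak with 33 summit reads (22.7 to 46.3) over a background of 3.24. Its fold was 8.02, and the nearest lactate peak was 23.9 kb away. The next were on chromosome 16 (69199525 to 69200449), between the adhesion gene Cadm2 and Speer2, and on chromosome 8 (60319674 to 60319930), 186 kb from Aadat, an aminotransferase gene. Each of these had 28 reads (18.6 to 40.5) and a fold of 7.33, and their nearest lactate peaks were 419 kb and 56.7 kb away. The fifth, on chromosome 10 (46586842 to 46587502), had 26 reads and lay between Hace1, a ubiquitin ligase gene, and the kainate receptor gene Grik2. The ninth, on chromosome 1 (31416366 to 31416743), had 27 reads and a nearest lactate peak 466 kb away. The 10 highest folds ran from 8.02 down to 6.16, at 25 to 33 summit reads over backgrounds of 2.96 to 3.42.

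Control-only far peaks usually had no lactate peak nearby. The median distance to the nearest lactate peak was 63.9 kb, and 25% of the members had one within 22.3 kb. A lactate peak within 1 kb was found for 610 members (5.22%, 4.83% to 5.64%) and within 10 kb for 1692 (14.5%). From lactate-only far peaks to the nearest control peak the median was 15.6 kb, and 20.7% (19.2% to 22.1%) had one within 1 kb. The lists hold 14273 and 5690 far peaks, so the distances in the 2 directions are not on a common footing.

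Sequence over 10 kb from genes amounted to 904 Mb in 14040 gene-free stretches. The control-only far peaks stood at 12.9 per Mb of it (12.7 to 13.1), the lactate-only far peaks at 3.39 per Mb (3.27 to 3.52) and the shared far peaks at 2.87 per Mb (2.76 to 2.98). There were thus 3.81 control-only peaks for each lactate-only peak (3.66 to 3.96). The members cover 2.39 Mb, or 0.264% of the far sequence. At least 1 member was present in 24.4% of the stretches.

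Chromosomes differed widely. Chromosome 15 had the highest density of control-only far peaks, 27.6 per Mb (25.9 to 29.3), from 1024 peaks in 37.2 Mb. Chromosomes 6 and 13 followed at 22.5 (21.2 to 23.9) and 22.2 (20.8 to 23.6), with overlapping intervals. The lowest values were 4.64 per Mb (4.19 to 5.12) on chromosome X and 4.77 (3.75 to 5.99) on chromosome 19, also overlapping, and chromosomes 9 and 14 had 5.10 and 5.81. Chromosomes 1, 8, 10 and 11 lay between 16.2 and 18.2 per Mb. Lactate-only far peaks went from 1.07 per Mb on X to 6.76 on chromosome 13 and 6.73 on chromosome 15. Control-only far peaks outnumbered lactate-only ones on all 20 chromosomes, by 1.85 times on chromosome 19 up to 5.93 times on chromosome 6.

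**Figure D2:**
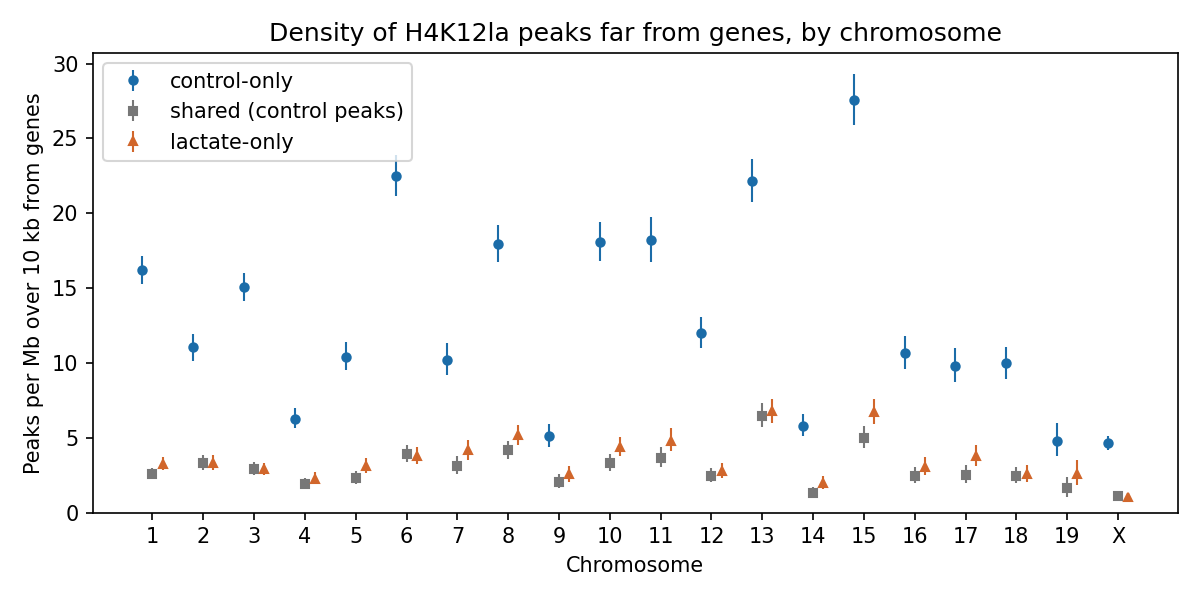
Peaks per Mb of sequence over 10 kb from genes (vertical axis) on each chromosome (horizontal axis), for control-only peaks (circles), shared control peaks (squares) and lactate-only peaks (triangles), with 95% Poisson intervals for counting error as bars. Control-only density is highest on chromosome 15 at 27.6 per Mb and lowest on X at 4.64, and lies above the lactate-only density on every chromosome.

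The density moved with the local background of the chromosome. On chromosome 13, 78.0% of the members had a local background above the genome-wide value, and on chromosome 15, 73.9% did. On chromosomes 14 and X the shares were 26.0% and 32.2%. Over the 20 chromosomes this share and the control-only density had a Pearson r of 0.93 and a Spearman rho of 0.91. Control-only and lactate-only densities had a Pearson r of 0.85 and a rho of 0.83. For control-only and shared densities the values were 0.87 and 0.90. The lactate-only density and the share of members above the genome-wide background had an r of 0.89 and a rho of 0.88. These are descriptions over chromosomes that share 2 libraries, and the first pair comes from the same peaks. The part of local read depth in these densities was not tested.

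Control-only far peaks outnumbered lactate-only far peaks by more in long gene-free stretches than in short ones. In stretches of 20 to 50 kb between genes the control-only density was 9.12 per Mb (8.50 to 9.76), and the lactate-only density was 7.30 (6.75 to 7.88). In stretches of 100 to 250 kb the values were 11.6 (11.2 to 11.96) and 2.85 (2.67 to 3.05). In stretches of 500 kb to 1 Mb they were 19.1 (18.3 to 19.99) and 1.42 (1.21 to 1.66). The control-only set was thus denser in long stretches, and the lactate-only set sparser. Control-only peaks per lactate-only peak came to 1.25 (1.13 to 1.39) in the shortest stretches and 13.5 (11.4 to 16.0) in stretches of 500 kb to 1 Mb. The 12 stretches over 1 Mb held 259 control-only peaks at 18.4 per Mb (16.2 to 20.8) and 16 lactate-only peaks. Shared far peaks followed the lactate-only direction, from 5.41 per Mb in the shortest stretches to 1.67 at 500 kb to 1 Mb.

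Distance from the nearest gene gave the same order. At 10 to 20 kb from a gene there were 10.0 control-only peaks per Mb (9.61 to 10.5), at 50 to 100 kb 14.2 (13.7 to 14.8) and beyond 200 kb 19.9 (18.8 to 21.1). The lactate-only densities at these distances were 5.57, 2.41 and 1.35 per Mb. Of the control-only far peaks, 29.6% lay over 100 kb from any gene, against 11.1% of the lactate-only and 14.8% of the shared far peaks. Median local background in the control-only set was 3.09 reads in the shortest stretches, 3.02 at 500 kb to 1 Mb and 2.96 over 1 Mb. The last is the genome-wide value, the lowest recovered, at which 43.3% of the members stood. The median can therefore show little change with stretch length. The median pileup was 14 reads in each class. Over all peaks, the local background differed more by place in the lactate library. There it had a median of 4.62 reads within 10 kb of or in genes and 3.11 beyond 10 kb, against 3.42 and 3.12 in the control. The part of this difference in the calls was not tested.

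**Figure D3:**
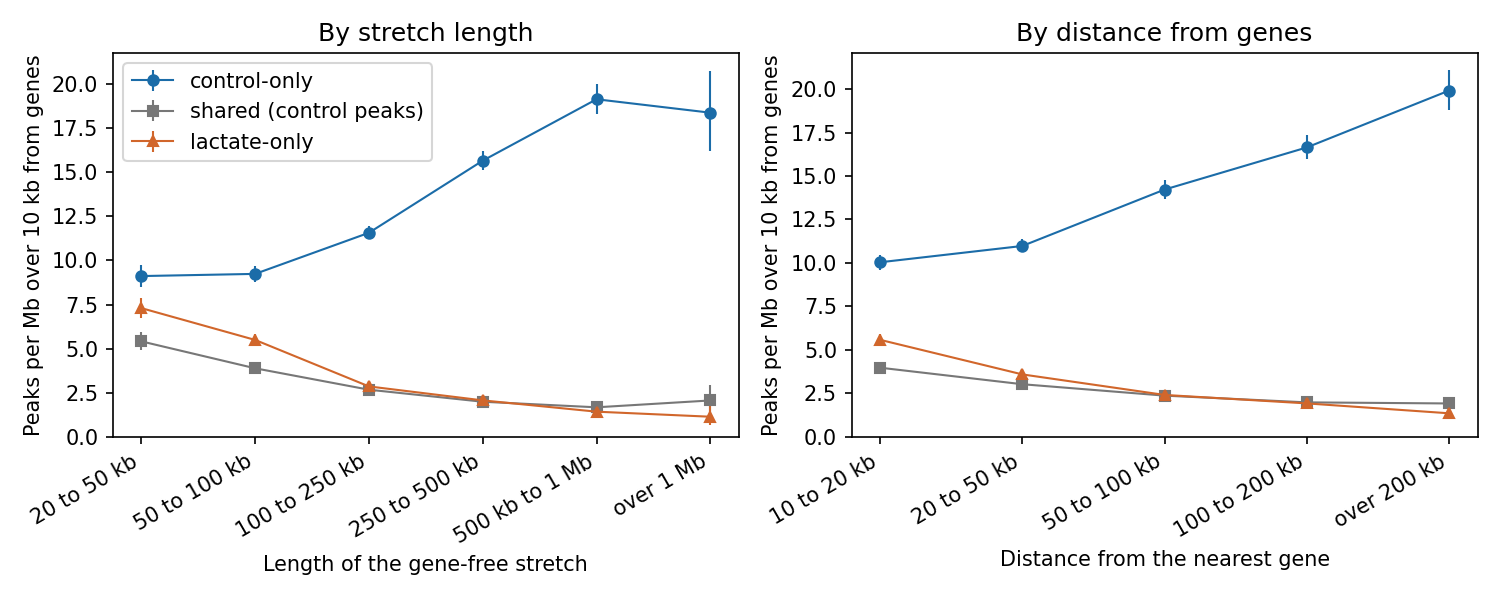
Peaks per Mb of sequence over 10 kb from genes (vertical axes) by length of the gene-free stretch (left) and by distance from the nearest gene (right), for control-only (circles), shared (squares) and lactate-only peaks (triangles), with 95% Poisson intervals for counting error. Control-only density goes from 9.12 to 19.1 per Mb between the shortest stretches and those of 500 kb to 1 Mb, while lactate-only density goes from 7.30 to 1.42.

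Deserts of at least 500 kb numbered 182 and made up 13.6% of the far sequence. They held 2346 control-only far peaks, 20.1% of the set, and 171 lactate-only far peaks, 5.57% of that set. The density of control-only peaks was 1.60 times that of shorter stretches (1.52 to 1.67), and the lactate-only density was 0.375 times (0.319 to 0.437). Control-only density was higher in deserts on 17 of 20 chromosomes. Chromosomes 5, 12 and X were the exceptions, at 9.93 against 10.5, 8.46 against 12.4 and 2.74 against 4.74 per Mb. The lactate-only density was higher in deserts on none of the 20. Control-only peaks outnumbered lactate-only peaks in 162 of the 182 deserts, lactate-only peaks outnumbered them in 4, and 12 deserts held neither. In 96 deserts there were at least 10 control-only peaks, and in none were there 10 lactate-only peaks. Density still varied from desert to desert, with a median of 16.2 per Mb, 25% of deserts at or below 6.99 and a highest value of 77.9.

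**Figure D4:**
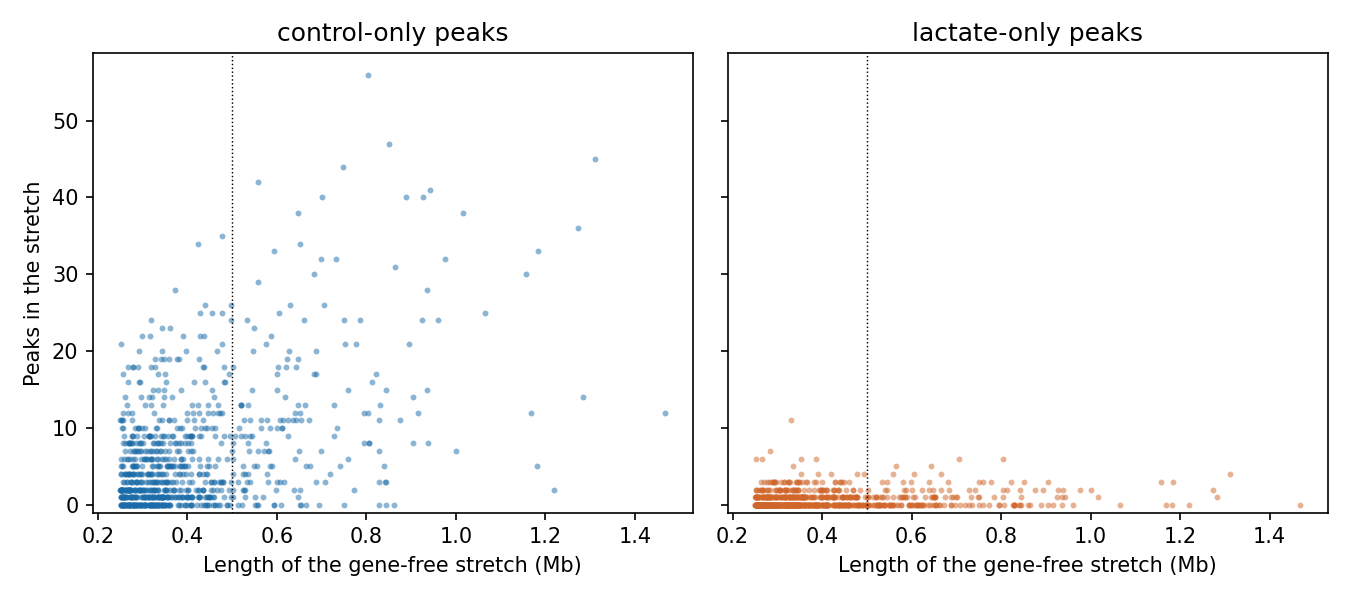
Number of control-only peaks (left) and lactate-only peaks (right) in each gene-free stretch of at least 250 kb (vertical axis) against its length in Mb (horizontal axis); each point is a stretch and the dotted line marks 500 kb. Control-only counts reach 56 in a single stretch and spread widely at every length, while no stretch of at least 500 kb has 10 lactate-only peaks.

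The borders of a desert are annotated genes of any class, and can be pseudogenes or non-coding genes. The protein-coding genes named here and below are the nearest on a side and can lie far beyond the border. Csmd3 lies 1618 kb from the first desert named and Cdh6 1290 kb from the third. The desert with the most members lay on chromosome 15 (45158430 to 45962524). It held 56 control-only, 6 lactate-only and 3 shared far peaks, at 71.4 control-only peaks per Mb, between Kcnv1, which encodes a modulatory potassium channel subunit, and Csmd3, a large neuronal transmembrane protein gene. Its members had 11 to 25 summit reads with a median of 16. The next, with 47 members, began at the end of Nxph1 on chromosome 6 (9249620 to 10100370) and held 3 lactate-only peaks. Nxph1 encodes neurexophilin, a secreted ligand of neurexins. The third, with 45 members, lay between the cadherin genes Cdh6 and Cdh9 on chromosome 15 (14466670 to 15778113), with 4 lactate-only and 11 shared peaks. On chromosome 11 a stretch before Vstm2a (15489454 to 16236928) held 44 members and 1 lactate-only peak, and another between Cobl, an actin nucleator gene, and Pom121l12 (12998580 to 13941721) held 41 and 1.

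Adjoining deserts on chromosome 13, between Cox7c and Edil3, held 40 members (86046796 to 86748547) and 42 members (86748617 to 87307725). Cox7c encodes a subunit of cytochrome c oxidase and Edil3 a secreted integrin ligand. The second of these had the highest density of any stretch with at least 500 kb of far sequence and 10 members, 77.9 per Mb, and a member with 30 summit reads and a fold of 6.15. The stretch before Tbc1d32, a gene of ciliary signalling, on chromosome 10 (55124789 to 56014292) held 40 members and no lactate-only peak. The stretch between Ankrd7 and the potassium channel gene Kcnd2 on chromosome 6 (19777552 to 20425162) had 60.5 members per Mb, the third-highest density. Median distances between a member and the next ran from 5.61 to 9.54 kb in the 8 stretches with the most members.

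Long deserts were not uniformly rich. Those named next are bordered by pseudogenes or non-coding genes. The protein-coding genes given for them lie 229 to 2128 kb beyond. The longest gene-free stretch, 1.47 Mb on chromosome 4 between Epha7, a guidance receptor gene, and Map3k7 (29196279 to 30664595), held 12 members at 8.29 per Mb. The third longest, 1.28 Mb on chromosome 14 between Olfm4 and Pcdh17 (82122227 to 83405630), held 14 at 11.1 per Mb. The fifth longest, 1.22 Mb on chromosome 5 between Lcorl and the guidance gene Slit2 (46415439 to 47634491), held 2. By contrast 1.27 Mb on chromosome 3 before Pcdh10 (41978126 to 43250386) held 36. Of the 182 deserts, 16 held no member. The longest of these were on chromosome X (63186635 to 64047553 and 46536491 to 47380244) and on chromosome 17 between Nudt12 and Efna5 (59657248 to 60486006), and each held 1 shared far peak. A stretch may contain sequence to which reads cannot be placed, and this was not examined.

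Members lay close together more often than the peaks of either other far set. The median distance from a control-only far peak to the next was 14.1 kb, against 89.2 kb for lactate-only and 110 kb for shared far peaks. Another member within 10 kb was found for 40.4% (39.5% to 41.3%), against 24.4% (22.9% to 25.9%) and 25.6% (24.0% to 27.4%). The control-only set is 3.81 times as large as the lactate-only set, and a larger set has closer neighbours. Within 1 kb the order was different, at 10.5% (9.91% to 11.02%) of the control-only, 11.8% (10.7% to 13.02%) of the lactate-only and 14.1% (12.8% to 15.5%) of the shared far peaks.

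Linking members with at most 10 kb between them gave 8949 runs, of which 1984 had 2 or more members, 512 had 3 or more and 47 had 5 or more. The longest run had 10 members over 42.8 kb on chromosome 13 (87074039 to 87116880), in the second Cox7c to Edil3 desert and 191 kb from the nearest gene. Its members had 12 to 22 summit reads, and no lactate peak lay inside it. Of the runs of 7 members, the first by position were on chromosome 12 (22338556 to 22368192), with 13 to 22 reads, and on chromosome 15 between Kcnv1 and Csmd3 (47028802 to 47054265), with 14 to 27 reads. Neither contained a lactate peak. Shared far peaks formed a longer run of 18.

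The spacing had a step at 5 kb. Between neighbouring members, gaps under 1 kb numbered 623, gaps of 3 to 4 kb 153 and gaps of 4 to 5 kb 189. Gaps of 5 to 6 kb then numbered 348, and gaps of 9 to 10 kb 226. All far control peaks together gave 209, 254 and 456 gaps at 3 to 4, 4 to 5 and 5 to 6 kb. Lactate-only far peaks had 22, 19 and 32 gaps in these classes, and shared far peaks 17, 14 and 26, so both also had more gaps at 5 to 6 kb than at 4 to 5 kb, in smaller numbers. MACS2 can take the local background of a peak from a window around it, and the part of such a window in this spacing was not tested.

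**Figure D5:**
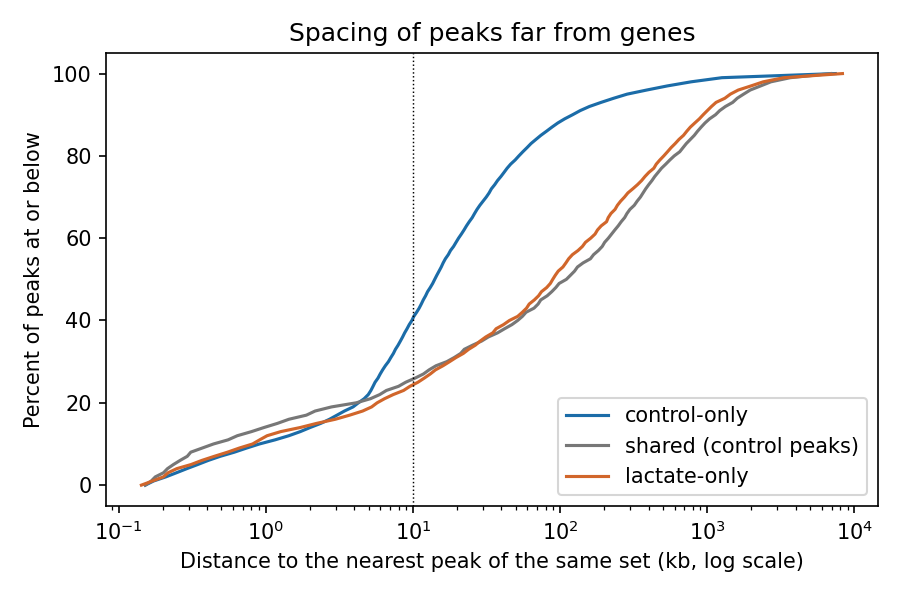
Percent of peaks (vertical axis) whose nearest peak of the same set lies at or below a given distance in kb (horizontal axis, log scale) for control-only, shared and lactate-only peaks over 10 kb from genes; the dotted line marks 10 kb. The control-only curve steepens beyond about 5 kb and reaches 40.4% at 10 kb, above the 24.4% of the lactate-only and 25.6% of the shared peaks.

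At the scale of 1 Mb windows the members were unevenly spread. Among 1222 windows with at least 300 kb of far sequence, density had a median of 8.03 per Mb, 25% of windows were at or below 2.48, 25% at or above 19.6, and 205 windows held no member. The 122 windows with the most members held 34.5% of all members in 10.5% of the far sequence. The highest counts were 70 in the window from 79 to 80 Mb on chromosome 13, 69 in that from 45 to 46 Mb on chromosome 15, which contains Kcnv1, and 65 in that from 82 to 83 Mb on chromosome 13. The chromosome 13 windows contain no protein-coding gene and had median local backgrounds of 3.92 and 4.16 reads.

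Pseudogenes and non-coding genes were often the nearest annotated gene. The nearest gene was a pseudogene for 42.1% of the members, a long non-coding RNA for 26.3% and protein-coding for 19.7%. For lactate-only far peaks the shares were 25.8%, 34.0% and 31.6%, and for shared far peaks 32.6%, 29.7% and 27.8%. The median distance to a protein-coding gene was 246 kb for the members, 66.9 kb for lactate-only and 102 kb for shared far peaks. Of the 8916 members whose nearest protein-coding gene has a known strand, 54.2% (53.2% to 55.2%) lay upstream of it. The share was 52.2% (50.1% to 54.2%) for the lactate-only and 54.1% (51.9% to 56.2%) for the shared far peaks.

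A small number of protein-coding genes accounted for much of the set. The members had 2185 different nearest protein-coding genes, with a median of 2 members each, and the 291 genes with 10 or more took 60.8% of all members. Csmd3 was nearest to 119 members, at 17.7 to 1167 kb, and to 7 lactate-only far peaks. Cox7c was nearest to 99 members and 7 lactate-only peaks, and Slc39a10 to 91 and 7, with all 91 upstream. Kcnv1 followed with 87 members, and Cdh9, a classical cadherin gene, and Grik2 with 84 each. Pom121l12 had 83 members and 1 lactate-only peak. Arrdc3, an arrestin-domain gene, had 82 members, all upstream, Tmeff2, a transmembrane protein gene, 72, and Nr2f1, a nuclear receptor gene of brain development, 68. Between them these 10 genes lie on chromosomes 1, 10, 11, 13 and 15. They had 1 to 9 lactate-only peaks each, and the median was 1 over the protein-coding genes nearest to at least 1 such peak. None of these counts is divided by length. Up to the next protein-coding gene, Csmd3 had 3.72 Mb of far sequence, Cdh9 4.64 Mb, Grik2 3.50 Mb and Nr2f1 2.17 Mb. The median was 34.7 kb per protein-coding gene.

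Flanking genes were then read by gene family. A gene was taken to border a member when no other protein-coding gene lay between them. Over all protein-coding genes that border far sequence, 27.6% bordered a member, at 12.9 members per Mb. Of 42 neural and synaptic adhesion genes, which encode synaptic organisers and contactins among others, 38 bordered far sequence and 34 of these a member. Their bordering sequence held 17.3 members per Mb (16.4 to 18.3) and 1.63 lactate-only peaks per Mb. Csmd3 bordered 201 members and Cntnap5a, a neurexin-like gene, 129. Of 23 cadherins and protocadherins outside the clusters, 22 bordered far sequence and all 22 a member, at 17.1 per Mb (16.1 to 18.3), led by Cdh9 with 168 members and Cdh10 with 133. A lactate-only far peak was bordered by 27 of the 38 adhesion genes and 19 of the 22 cadherins, against 27.1% of all protein-coding genes. Without chromosome 15, where Cdh9, Cdh10 and Csmd3 lie, the densities were 15.3 for adhesion genes, 14.1 for cadherins and 12.3 over all genes. These genes border much longer far sequence than others, a median of 1474 kb per adhesion gene and 3230 kb per cadherin, against 34.7 kb per protein-coding gene, and both the shares and the densities are to be read beside these lengths, since control-only density was also higher in longer gene-free stretches.

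Of 24 glutamate and GABA receptor genes, 23 bordered far sequence and 20 a member, at 22.2 per Mb (20.03 to 24.4), the highest of the lists. The kainate receptor gene Grik2 bordered 108 members and the metabotropic receptor gene Grm7 71, of 399 in the list. Axon guidance genes stood near the overall value at 12.3 per Mb (11.01 to 13.7), with 20 of 23 bordering a member, led by the netrin receptor gene Unc5d with 86 and the ephrin gene Efnb2 with 77. Developmental transcription factors had 12.2 per Mb (11.1 to 13.4), with 38 of 56 bordering a member, led by Nr2f1 with 150 and Irx1 with 58. The same number, 38 of 56, bordered a lactate-only peak. So did 13 of the 23 receptor and 15 of the 23 axon guidance genes, against 27.1% of all protein-coding genes. Bordering far sequence was long in these lists too. Its median was 625 kb per receptor, 844 kb per axon guidance and 594 kb per transcription factor gene, against 34.7 kb per protein-coding gene. Their shares and densities are to be read beside these lengths as well.

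Vomeronasal receptor genes had 16.2 members per Mb (13.7 to 19.1) over 118 of 316 genes, with 7 each at Vmn2r121 and Vmn2r40. Olfactory receptor genes had 12.3 per Mb (10.02 to 15.01) over 109 of 601, led by Olfr161 with 10 and Olfr16 with 5. Over all protein-coding genes 27.6% bordered a member, at 12.9 per Mb. A lactate-only peak was bordered by 18 of the 601 olfactory and 30 of the 316 vomeronasal genes, against 27.1% of all protein-coding genes. These families border short far sequence, a median of 10.8 kb per olfactory and 23.7 kb per vomeronasal gene against 34.7 kb per protein-coding gene. Their lactate-only densities were 2.12 and 2.43 per Mb against 3.39. Shared far peaks were denser there, at 5.61 per Mb for olfactory and 6.19 for vomeronasal genes against 2.87 over all genes. Ribosomal protein and proteasome genes had 9.83 per Mb (7.72 to 12.3) over 12 of 49 genes, led by Rps29 with 40 and Rpl10l with 11. Zinc finger Zfp genes had the lowest value, 6.77 per Mb (5.46 to 8.29) over 29 of 167 genes. Zfp521 and Zfp42 bordered the most members, 19 and 17. A lactate-only peak was bordered by 19 of the 49 ribosomal and proteasome genes and 28 of the 167 Zfp genes. Their bordering far sequence was short too, with medians of 24.5 kb per ribosomal or proteasome gene and 23.1 kb per Zfp gene. Their densities are to be read beside these lengths, since control-only density was also lower in shorter gene-free stretches. MicroRNA genes were counted against annotated neighbours of any class. Of them 31 of 114 bordered a member, beside 26.9% of all annotated genes, at 14.9 per Mb (12.9 to 17.2). More of them, 35 of 114, bordered a lactate-only peak, beside 19.3% of all annotated genes. Without chromosome 15 the member density was 13.3 per Mb for microRNA genes and 12.3 over all annotated genes. Mir3961, on chromosome 13, bordered 52 members and Mir3964, on chromosome 15, 20.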

How the data were processed

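CUT&Tag of H4K12la was deposited as 1 peak list per library. The submitters' processing notes name mm10, BWA, MACS2 and deepTools. Not given in the sources used here are their versions, their settings and whether there was a control library. The deposited fold enrichment is a ratio of summit pileup to local background within a library, the authors give −log10 p and q of its summit, and the deposited score is the −log10 q times 10. No read totals are in the lists. They were used to describe peaks within a list.

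Peaks on chromosomes 1 to 19 and X were kept. Pileup and background were solved from fold and −log10 p, with a whole-number pileup within 0.001 for 46560 of 46561 control and all 39727 lactate peaks, and checked on simulated data. Genes came from a RefSeq table built on GRCm38.p6 (mm10). Of 49554 genes, 340 end below 3 Mb, where neither list has a peak (the lowest is at 3000112), and were left out as scaffold coordinates. This departs from the planned span, and the closing section gives the value with them. Far sequence runs between the outermost gene or peak of a chromosome. Strand came from the RefSeq promoter table. Shares have exact Clopper-Pearson and counts exact Poisson intervals. PCR reads are not independent molecules, so intervals cover counting error only. Named were the 10 members with the highest pileup, the widest, those next to 10 kb, the 8 stretches with the most members, the 5 densest, the 5 longest, the 3 longest without a member, the 3 fullest windows and longest runs, the 10 commonest nearest genes and 2 genes per list. The members and lists were chosen with earlier results of these data known. Tools were scipy 1.17.1, pandas 2.3.3 and numpy 2.4.6 under Python 3.11.15, and matplotlib 3.10.9 for the plots.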

Additional observations from a re-analysis of the deposited data

How the results depend on the processing

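The excess of control-only over lactate-only far peaks, the higher control-only density in deserts and the lower lactate-only density there kept their direction under every alternative run for them. With only peaks of −log10 q 5 or more kept from either list, there were 925 control-only far peaks, 63.4% of far control peaks, at 1.02 per Mb and 1.72 per lactate-only peak. Of them 8.86% had another within 10 kb, the desert ratio was 1.38 and 8.31% of bordering protein-coding genes bordered one. At 10 there were 128, or 40.5%, at 0.142 per Mb and a ratio of 1.75. The lists were cut before peaks were matched, here and for equal length and 14 summit reads below. Peaks whose partner fell below the cut are thus counted as unpartnered. Among the control-only far peaks as first defined, 549 reached 5 and 16 reached 10. Among the lactate-only far peaks as first defined, 204 and 3 did. With lists of equal length the values were 79.7%, 10.7 per Mb, a ratio of 3.04, 34.0% within 10 kb and 25.7% of genes. With at least 14 summit reads they were 7151 peaks, 80.2%, 7.91 per Mb, a ratio of 3.65 and desert ratios of 1.49 (control-only) and 0.295 (lactate-only). Over 5, 20 and 50 kb from genes the share was 80.0%, 84.5% and 88.0%, the density 12.3, 13.8 and 15.9 per Mb, the ratio 3.13, 5.06 and 7.66, and the share of bordering genes 25.7%, 32.6% and 47.8%. Over 50 kb there were 6284 peaks, 42.4% with another within 10 kb. With a lactate peak within 1 kb as partner the values were 77.5%, 12.2 per Mb and 4.55, and with 50% overlap 87.1%. With protein-coding genes only they were 77.7%, 12.4 per Mb, 2.86 and a desert ratio of 1.79. Density was 13.8 per Mb on autosomes and 12.3 without chromosome 15. Another member lay within 5 kb for 22.1% and within 50 kb for 79.2%. Deserts of at least 1 Mb gave a ratio of 1.43. Chosen after seeing the data, keeping the genes with scaffold coordinates gave 12.4 per Mb and a desert ratio of 1.32, because unassembled chromosome starts then count as far sequence, and leaving out peaks on local backgrounds over 10 reads gave 82.7%. No paired analysis was possible because each group has 1 library. For the other moves the cause was not tested. No called peak in either list had under 11 summit reads, and weaker signal is not seen in these lists.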

Other observations

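With each chromosome divided into 5 equal spans, the control-only far peaks stood at 16.2 (15.6 to 16.8), 11.9, 14.1, 11.9 and 9.71 (9.21 to 10.2) per Mb of far sequence from the centromeric end on. The spans at the ends were thus the highest and the lowest, with no steady fall between them. Lactate-only far peaks had 3.38 (3.13 to 3.65), 2.58, 3.12, 3.01 and 5.27 (4.91 to 5.65) per Mb, lowest in the second span and highest in the last. Shared far peaks had 3.81, 2.07, 2.73, 2.26 and 3.62 per Mb. With chromosome Y included there were 11684 control-only far peaks.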
